A study of Mus musculus with 16 samples.

Results

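The 43 genes described here encode the contractile apparatus of skeletal muscle and the factors that make it. They were the rows of the count table that carried the symbols of a list of sarcomere, calcium-handling, energy and myogenic genes, and all 43 were found among the 49568 symbols of the table. RNA-seq had been performed on single flexor tendons of male mice aged 9 to 11 weeks of the strains C57BL/6J (C57) and MRL/MpJ (MRL, known for scarless repair of some tissues). Each strain gave 4 libraries of uninjured and 4 of injured tendon, 16 in all. Injured tendons were taken 7 days post-injury (dpi), after a cut through 50% of the width of the deep digital flexor tendon of digit 3 of the hind paw, and uninjured tendons had no cut. The tendons were whole tissue from the injury site with the surrounding sheath left on, and the labels name no transgene or drug. Total counts ranged from 12552424 to 23741648, and 3 counts, taken as the floor of detection, corresponded to between 0.124 and 0.239 CPM (counts per library scaled to a common total, with TMM-adjusted library sizes).

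Striated muscle contracts as myosin heads of the thick filament pull on actin of the thin filament within the sarcomere, a unit bounded by Z discs. Fibres differ in speed, and each speed has its own isoforms: the heavy chains Myh1 (type IIx), Myh2 (type IIa) and Myh4 (type IIb) mark fast fibres, and Myh7 marks slow fibres. Myh3 (embryonic) and Myh8 (perinatal) are made in developing and regenerating fibres. Pax7 marks the satellite cell, the stem cell of muscle, and Myf5, Myod1 and Myog are transcription factors that act in turn as these cells become fibres. Tendon cells are not known to build sarcomeres, and the source of muscle RNA in these libraries was not tested.

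The myosin heavy chain genes that divided the libraries lie side by side on chromosome 11. The 250 bases before the RefSeq start (GRCm38.p6, plus strand) are shown for the 3 adult fast genes, of which Myh4 behaved unlike its neighbours, and for Myh3, the gene of the embryonic chain. Capitals mark the E box CAGCTG (bound by Myod1 and Myog), the MEF2 box and the CArG box, each of which reads the same on either strand.
Myh2, chr11:67170777-67171026: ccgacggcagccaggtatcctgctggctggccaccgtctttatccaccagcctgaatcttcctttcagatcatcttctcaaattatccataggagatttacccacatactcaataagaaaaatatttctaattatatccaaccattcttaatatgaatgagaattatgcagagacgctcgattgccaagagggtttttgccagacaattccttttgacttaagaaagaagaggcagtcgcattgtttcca
Myh1, chr11:67199852-67200101: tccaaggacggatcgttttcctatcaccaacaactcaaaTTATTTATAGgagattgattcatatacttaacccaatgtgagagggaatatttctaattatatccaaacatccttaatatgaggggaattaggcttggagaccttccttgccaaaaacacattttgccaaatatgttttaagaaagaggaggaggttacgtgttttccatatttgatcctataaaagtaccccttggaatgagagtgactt
Myh4, chr11:67237562-67237811: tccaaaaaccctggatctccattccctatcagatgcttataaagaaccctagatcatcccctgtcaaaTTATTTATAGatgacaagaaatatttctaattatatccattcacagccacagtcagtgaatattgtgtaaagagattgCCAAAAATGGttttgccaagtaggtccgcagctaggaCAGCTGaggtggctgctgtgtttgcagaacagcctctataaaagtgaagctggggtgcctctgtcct
Myh3, chr11:67078050-67078299: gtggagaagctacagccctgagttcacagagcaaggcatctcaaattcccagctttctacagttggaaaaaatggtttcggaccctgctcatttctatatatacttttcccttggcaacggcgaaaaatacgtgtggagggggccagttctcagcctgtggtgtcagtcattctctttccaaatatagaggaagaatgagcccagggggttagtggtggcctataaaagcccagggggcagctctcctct

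Myh4 held 1 of each motif in this window, Myh1 held the MEF2 box alone, and Myh2 and Myh3 held none of the 3 by these letters. CAGCTG stood in the windows of 12 of the 33 members with a RefSeq promoter (36.4%) and of 14.7% of all 27025 genes with one. The MEF2 box stood in 6 of the 33 members (18.2%) against 3.42% of all genes, and the CArG box in 5 (15.2%) against 1.62%. Myh4, Acta1 and the myosin light chain genes Myl2 and Mylpf were among the members with CAGCTG. A match of letters is no evidence that a factor bound there.

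Skeletal muscle transcripts were present in quantity in 2 of the 16 libraries, both of injured C57 tendon. In BI-181 the 43 genes took 1870694 counts, or 11.3% of the library. In BI-183 they took 55328 counts, or 0.365% (95% Wilson interval 0.362% to 0.368%), so that the share in BI-181 was 31.0-fold that in BI-183. The remaining injured C57 libraries, BI-184 and BI-185, had 460 and 694 counts on these genes (0.00329% and 0.00539%).

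The other 12 libraries were as low. Uninjured C57 tendons had 0.00463%, 0.00473%, 0.00442% and 0.00404%, uninjured MRL tendons 0.00725%, 0.00821%, 0.00637% and 0.00514%, and injured MRL tendons 0.00635%, 0.00263%, 0.0044% and 0.00288%. Some members, such as Tcap, Eno3, Pygm and Tnnt1, were still detected in these libraries. In BI-181, 42 of the 43 genes had more than 3 counts, in BI-183 39 did, and in the other 14 libraries between 7 and 19 did. BI-181 and BI-183 both lay above every other library for 39 of the 43 genes (90.7%), against 512 of the 29726 genes with any count (1.72%). The pair had been named for their counts of these same genes, so this describes that choice and is no test of it. All intervals and limits given here cover counting error only.

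**Figure D1:**
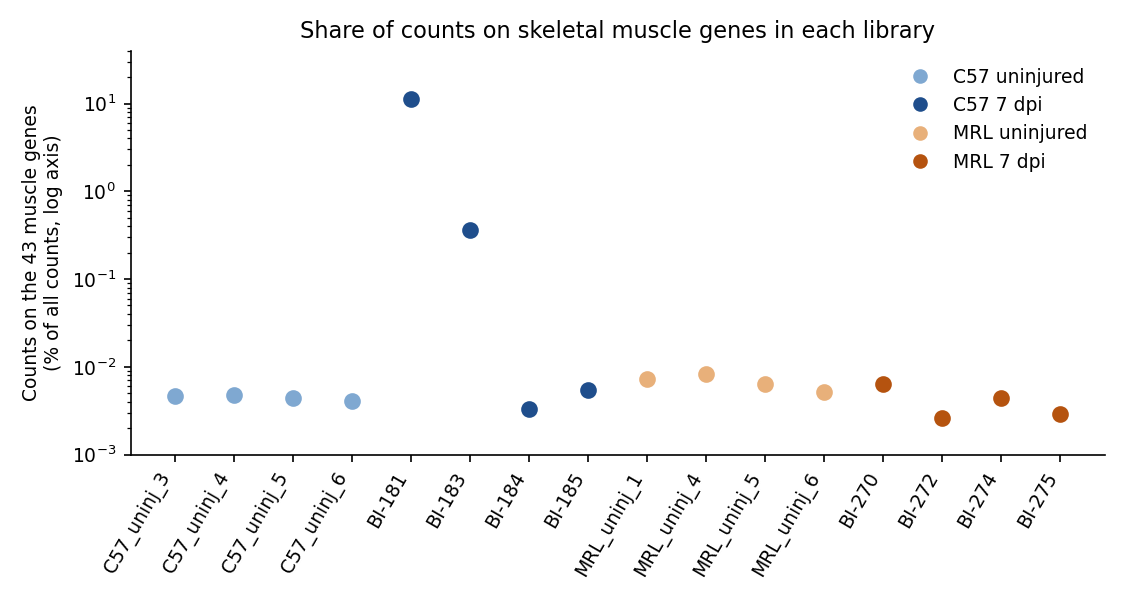
Percent of all counts that fell on the 43 muscle genes (log axis) in each of the 16 libraries, coloured by group, with 95% Wilson intervals that are mostly smaller than the points. BI-181 (11.3%) and BI-183 (0.365%) stand above the other 14 libraries, which lie between 0.00263% and 0.00821%.

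Outside the muscle genes, BI-181 and BI-183 were set against the other injured C57 libraries. Over 16128 genes without the muscle genes and their companions, the rank correlation of BI-181 with the rest of its group was 0.906 to 0.931. That of BI-183 was 0.93 to 0.962, that of BI-184 0.906 to 0.961 and that of BI-185 0.931 to 0.962. Correlations with libraries of other groups are not given here. The 10 tenocyte markers (among them Scx, Tnmd and Col1a1) summed to 22381 CPM in BI-181 and 43410 CPM in BI-183, against 37279 and 36009 CPM in BI-184 and BI-185. Markers of other cell types differed too, in either direction. All 7 smooth muscle markers were highest in BI-181 (sum 1856 CPM, against 417, 175 and 1228 CPM in BI-183, BI-184 and BI-185). So were 4 of 5 Schwann cell markers (775 CPM, against 101, 86.2 and 527 CPM). Of all 29726 genes with any count, 11.1% were highest in BI-181. Among injured C57 libraries the 8 macrophage markers had their lowest sum in BI-181 (4392 CPM, against 7362, 7611 and 6332 CPM), as did the 12 epidermal markers (107 CPM, against 178, 151 and 198 CPM). The 5 endothelial markers summed to 132 and 121 CPM in BI-181 and BI-183 and to 79.6 and 96.9 CPM in BI-184 and BI-185, against at most 71.7 CPM in uninjured C57, and for 3 of them the pair were the highest libraries. The part of these cells in the muscle gene counts was not tested. The 7 cardiac markers summed to 5.23 CPM in BI-181 and 1.26 CPM in BI-183, against up to 4.69 CPM in uninjured C57. Of these, Myh6 (48 counts) and Mybpc3 (17 counts) were higher in BI-181 than in any other library and at 0 in BI-183, while Nppa and Myl7 were at 0 in both. In bulk tissue, more muscle fibres and more RNA per fibre cannot be told apart.

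**Figure D2:**
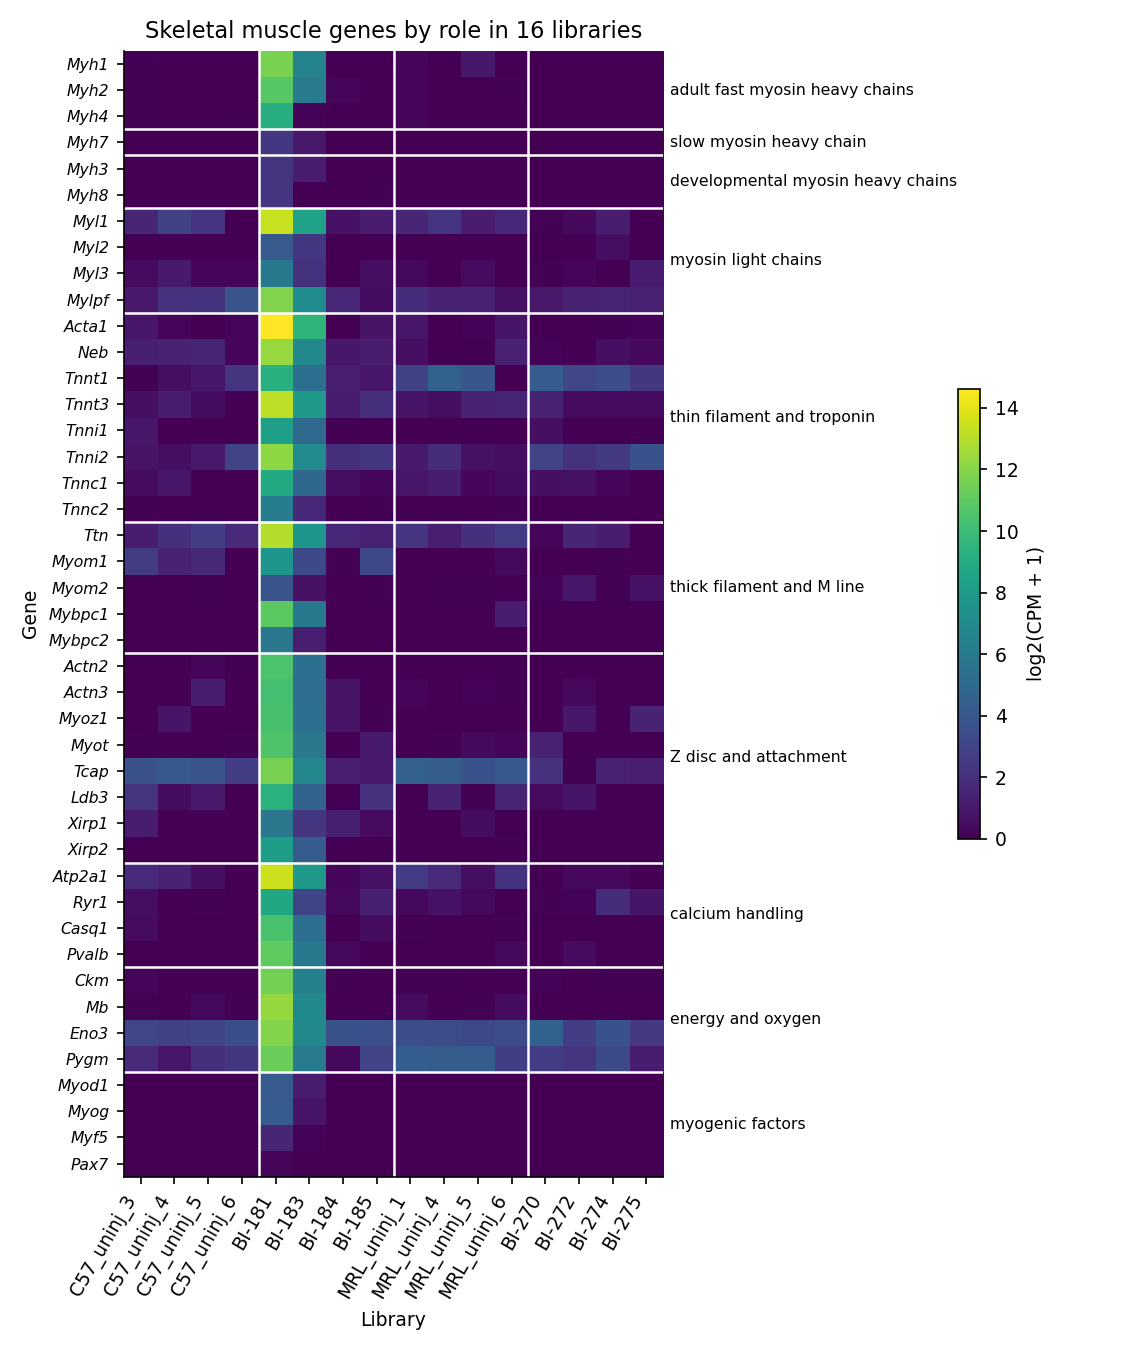
Heat map of log2(CPM + 1) of the 43 genes (rows, grouped by role) in the 16 libraries (columns, white lines between the 4 groups). The columns BI-181 and BI-183 are bright in nearly every row, and Tcap, Eno3, Pygm, Tnnt1 and Tnni2 are visible in the other columns too.

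The heavy chains were those of fast fibres. Myh1 had 52226 counts in BI-181 and 1558 in BI-183. Elsewhere it had 1, 0, 0 and 0 counts in uninjured C57, 0 and 0 in BI-184 and BI-185, 2, 0, 15 and 0 in uninjured MRL, and 0 in all injured MRL libraries. Myh2 had 29665 counts in BI-181 and 1132 in BI-183, and at most 3 in any other library (3 in BI-184, 2 and 1 in 2 uninjured MRL libraries, 1 in an uninjured C57 library, and 0 in the other 10). Outside the pair, only the 15 counts of Myh1 in MRL_uninj_5 were above the floor for either gene.

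The fastest isoform divided the pair. Myh4, the heavy chain of type IIb fibres, had 8749 counts in BI-181 but 2 in BI-183. Every other library had 0 to 2 counts of it (1 in each of 2 uninjured C57 libraries, 2 in an uninjured MRL library and 0 in the other 11), so the 2 counts of BI-183 were no more than these. The median member stood in BI-183 at 3.0% of its CPM in BI-181, and Myh4 at 0.0221%.

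Per kb of exon, Myh1 made up 59.3% of the 6 heavy chains in BI-181, Myh2 30.0% and Myh4 10.5%. In BI-183 the same shares were 59.9%, 38.8% and 0.0812%. The order Myh1, Myh2, Myh4 was the same in both libraries, and the share of Myh1 hardly differed between them. As shares of counts, Myh4 took 9.63% in BI-181 (95% Wilson interval 9.44% to 9.83%) and 0.0733% in BI-183 (0.0201% to 0.267%), and these intervals are far apart. With 1 library each, no test of a condition can be made on this difference.

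Myh7, the slow heavy chain, was a minor component. It had 66 counts in BI-181, 17 in BI-183 and 0 in the other 14 libraries. Its share of heavy chain counts was 0.0727% in BI-181 (0.0571% to 0.0924%) and 0.623% in BI-183 (0.389% to 0.996%). The slow share was therefore higher in the library with less muscle RNA, by more than the counting error.

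Developmental heavy chains were detected at a low level. Myh3 had 60 counts in BI-181 and 19 in BI-183, and 0 in the other 14. Its share of heavy chain counts was 0.0661% in BI-181 (0.0513% to 0.085%) and 0.696% in BI-183 (0.446% to 1.09%), a difference in the same direction as that of Myh7. Myh8 had 60 counts in BI-181 and 0 in BI-183, with 1 count in BI-185 and 0 in the other 13 libraries. A count of 0 among the 2728 heavy chain counts of BI-183 allows a share of up to 0.11%, above the 0.0661% of BI-181, so a difference in Myh8 was not detectable at this depth.

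**Figure D3:**
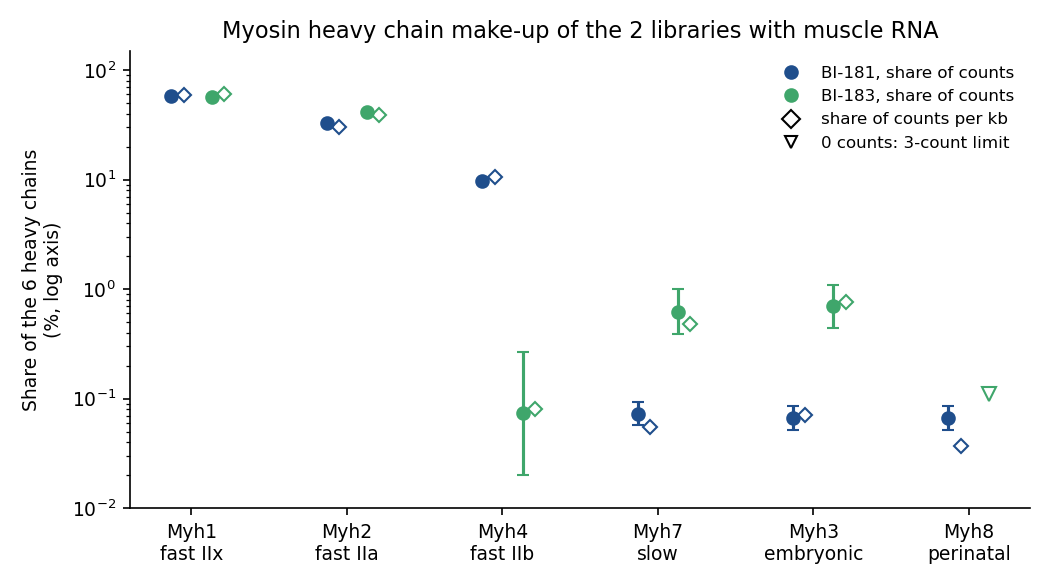
Share of each of the 6 myosin heavy chains (log axis, percent of the 6) in BI-181 and BI-183, as shares of counts with 95% Wilson intervals (filled circles) and per kb of exon (open diamonds); the open triangle is the limit that 0 counts of Myh8 allow in BI-183. Myh1 and Myh2 lie close together in both libraries, Myh4 is 9.63% of counts in one and 0.0733% in the other, and Myh7 and Myh3 are higher in BI-183.

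Near-identical sequence limits how far the heavy chains can be told apart. Windows of 100 bases were taken from the longest protein-coding transcript of each gene. Myh1 shared 14.7% of its windows with other genes, mostly Myh2, and Myh2 shared 11.2%, mostly with Myh1. Myh4 shared 3.85% and Myh3 1.15%. Myh7 shared 13.9%, mostly with the cardiac heavy chain Myh6, which had 48 counts in BI-181 and 0 in every other library. All 5 skeletal heavy chain genes other than Myh7 lie on chromosome 11 of GRCm38, Myh3 at 67078300 to 67102291, Myh2 at 67171027 to 67197517, Myh1 at 67200052 to 67224575, Myh4 at 67238029 to 67260446 and Myh8 at 67277124 to 67308634, all on the plus strand. An antisense gene, Myhas, overlaps 515 exon bases of Myh1, and the strand setting of the counting is not given in the sources used here.

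Other sarcomere proteins also have a fast and a slow isoform. Troponin I, the inhibitory subunit that holds actin from myosin at rest, was of the fast form Tnni2 for 97.2% of the pair per kb in BI-181 and 91.3% in BI-183, the rest being the slow form Tnni1. Troponin T, which ties troponin to tropomyosin, was of the fast form Tnnt3 for 95.4% and 89.3% of the pair with Tnnt1. For the regulatory light chains, fast Mylpf made up 99.7% in BI-181 and 98.4% in BI-183 of the pair with slow Myl2. In all 3 pairs the fast form was the larger in both libraries, and its share was lower in BI-183, with intervals of the shares of counts that did not overlap.

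Alpha-actinin, the crosslinker of the Z disc, was divided between the fast-fibre form Actn3 and the form of all fibres, Actn2. Actn3 was 52.9% of this pair per kb in BI-181 and 54.7% in BI-183. As shares of counts these were 46.2% (45.7% to 46.6%) and 48.0% (45.3% to 50.8%), so that no difference was detectable. Troponin C, the calcium sensor, gave low values for the fast form, with Tnnc2 at 15.9% and 8.44% of its pair with Tnnc1. Of the exon bases of Tnnc2, 74.0% lie within Ube2c on the opposite strand, and per kb of the exon outside other genes its share was 42.1% and 26.2%. How the counting treated such overlaps is not stated in the sources used here, so the level of Tnnc2 is uncertain, though its share was lower in BI-183 on either scale.

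Across the 43 genes, the level in BI-183 relative to BI-181 was higher for the slow heavy chain, light chains and troponins than for their fast forms. The CPM in BI-183 was between 2% and 5% of that in BI-181 for 27 members, above 5% for 11 and below 2% for 5. These 6 slow isoforms (Myh7, Myl2, Myl3, Tnnt1, Tnni1 and Tnnc1) stood at 5.74% to 24.9%, with a median of 8.07%. The 14 fast forms (the 3 adult fast heavy chains, Myl1, Mylpf, Tnnt3, Tnni2, Tnnc2, Actn3, Mybpc2, Atp2a1, Pvalb, Casq1 and Myoz1) stood at 0.0221% to 3.78%, with a median of 2.89%. Each of these 6 was above each of these 14, but the slow-type myosin binding protein Mybpc1, which is in neither set, stood at 2.97% (2.78% to 3.16%), among the fast forms. The lowest bound of the 95% exact intervals of the 6 slow isoforms was 4.31% (Myl3), and the highest bound of the fast forms was 4.08% (Tnnc2). This gap is narrow, as Myl3 had 56 counts in BI-183 (3.37 CPM) and up to 1.28 CPM outside the pair. No level of the other libraries was subtracted. Myh7 (24.9%, interval 13.7% to 42.9%) and Myl2 (23.9%, 18.1% to 31.1%) were the highest of the slow isoforms, and Myh3 was higher still at 30.6% (17.2% to 51.9%). Myh4 was the lowest of all members with a count in both libraries (0.0221%, 0.00267% to 0.0797%).

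**Figure D4:**
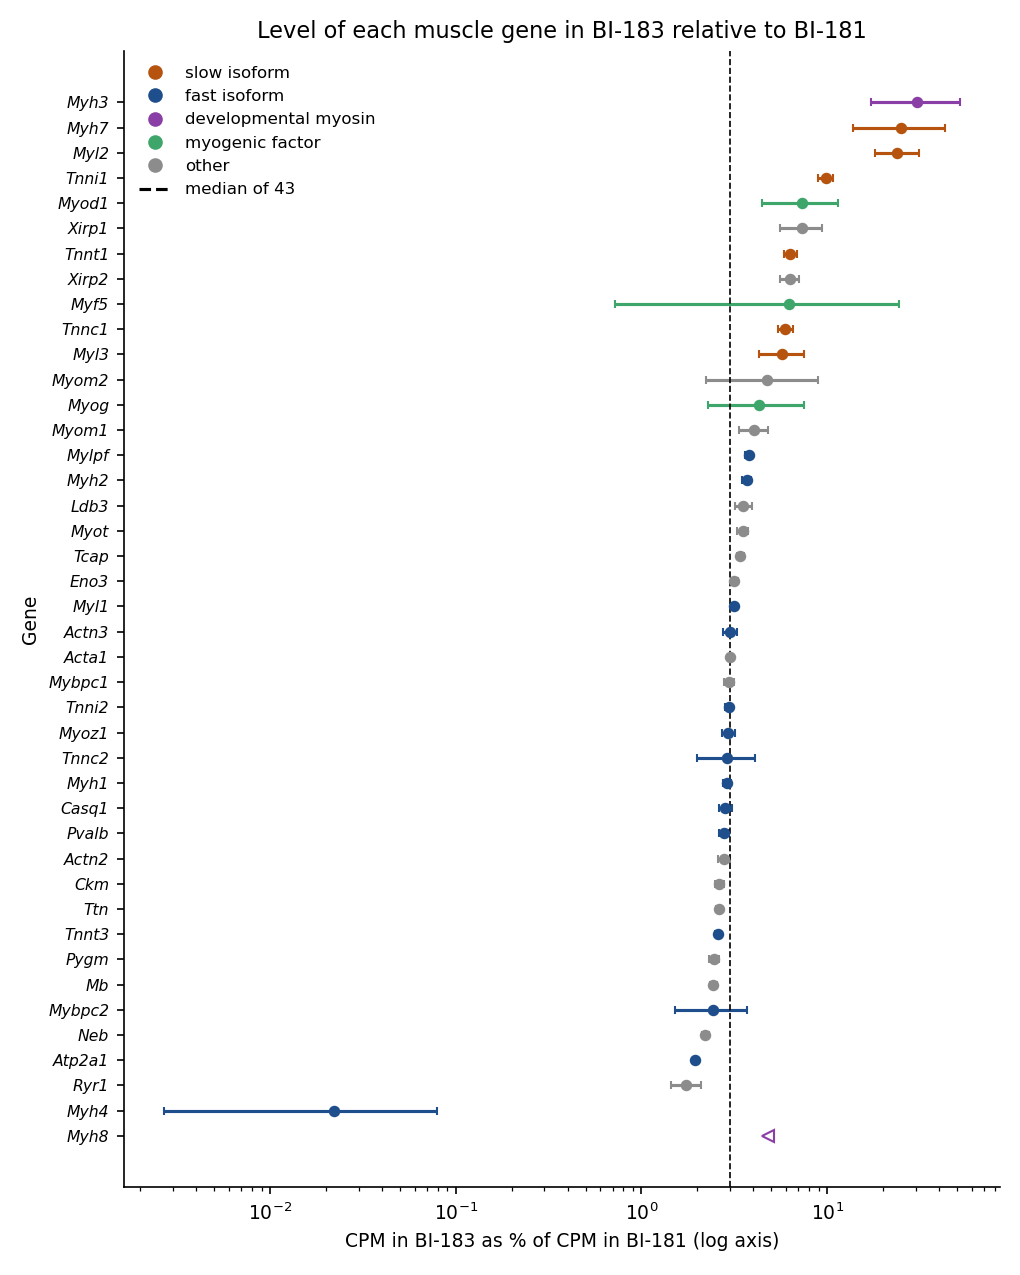
CPM in BI-183 as a percent of CPM in BI-181 (log axis) for 42 of the 43 genes (Pax7, with 3 and 0 counts, is left out), with 95% exact intervals for counting error; the open triangle of Myh8 is the limit that 0 counts allow (4.83%) and the dashed line is the median of all 43 (3.0%). The 6 slow isoforms of heavy chain, light chain and troponin lie to the right of the 14 fast forms, slow-type Mybpc1 (grey, 2.97%) lies among the fast forms, Myh3 lies farthest right at 30.6%, and Myh4 lies far to the left at 0.0221%.

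Genes of the thin filament and troponin took the largest part of the muscle counts. Acta1, skeletal alpha-actin, ranked highest of the 43 genes per kb in both libraries, with 406791 counts (25336 CPM) in BI-181 and 12561 counts (755 CPM) in BI-183. Other libraries had 13, 2, 0 and 2 counts in uninjured C57, 0 and 10 in BI-184 and BI-185, 13, 0, 2 and 10 in uninjured MRL, and 0, 0, 1 and 2 in injured MRL. The 8 genes of this group made up 39.2% of the muscle counts in BI-181 and 40.2% in BI-183 (these shares are of counts, in which long transcripts weigh more). Neb, which encodes nebulin along the length of the thin filament, had 84553 and 1937 counts, and Tnnt3 had 146403 and 3893.

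The thick filament and its M line gave 8.74% of the muscle counts in BI-181 and 8.29% in BI-183. Ttn, the giant spring between Z disc and M line, had 127427 and 3446 counts. Per kb, the slow-type myosin binding protein Mybpc1 stood at 6985 and 215 counts in BI-181 and BI-183, against 243 and 6.09 for the fast-type Mybpc2. The M-line genes Myom1 and Myom2 stood at 314 and 13.1 and at 23.0 and 1.13 counts per kb. The 4 light chain genes made up 12.7% and 14.8%, and highest of them per kb was Myl1, the essential light chain of fast fibres (85212 and 2769 counts per kb).

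The Z disc and attachment genes held 8.35% and 9.77% of the muscle counts. Tcap, the cap of titin at the Z disc, was the highest of them per kb (54584 and 1930 counts per kb), before Myot (11466 and 417), a scaffold of the Z disc, and the calcineurin-binding Myoz1 (11267 and 344). Xirp1 and Xirp2, proteins of sites of remodelling and attachment, had 872 and 66 and 4690 and 306 counts. Their levels in BI-183 were 7.31% (interval 5.6% to 9.39%) and 6.3% (5.59% to 7.07%) of those in BI-181, above the median of the members. Of the members without a fast or slow or developmental form, these and the myogenic factors Myod1 and Myf5 were those above 5%.

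Calcium handling took a smaller part in BI-183. Its 4 genes gave 13.5% of the muscle counts in BI-181 and 10.1% in BI-183. Atp2a1, the calcium pump of fast fibres, had 190580 and 3850 counts, a level in BI-183 of 1.95% of that in BI-181 (1.89% to 2.01%). Ryr1, the calcium release channel, had 6702 and 121 counts (1.74%, 1.44% to 2.09%). Casq1 and Pvalb, which bind calcium inside the reticulum and in the cytosol, stood at 2.83% and 2.79%. A stretch of 763 exon bases of Atp2a1 is shared with Rabep2 on the opposite strand.

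The energy genes took 12.6% of the muscle counts in BI-181 and 11.8% in BI-183. Ckm, muscle creatine kinase, had 49254 counts in BI-181 and 1341 in BI-183. It had 2, 0, 0 and 0 counts in uninjured C57, 1 and 0 in BI-184 and BI-185, 1, 1, 0 and 0 in uninjured MRL, and 3, 0, 1 and 1 in injured MRL, and so no library outside the pair was above the floor of 3 counts. Mb, the oxygen store myoglobin, had 83212 and 2099 counts. Eno3 and Pygm, the muscle forms of enolase and glycogen phosphorylase, had 61960 and 2028 and 41129 and 1054 counts, but were also found in every other library.

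Myogenic factors were found in the same 2 libraries and in no other. Myog, the factor of terminal differentiation, had 291 counts in BI-181 and 13 in BI-183, and Myod1, the determination factor, had 277 and 21. Myf5 had 31 counts, and 2 in BI-183, under the floor. Pax7 had 3 counts in BI-181 and 0 in BI-183, which is at or under the floor, so that Pax7 was not detectable at this depth. Each of the 4 genes had 0 counts in all 14 other libraries, where 3 counts would have been at most 0.239 CPM.

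Among themselves the factors differed in level. Per kb in BI-181, Myog stood at 195 counts and Myod1 at 149, against 14.9 for Myf5 and 0.512 for Pax7. Relative to BI-181, the level in BI-183 was 7.32% for Myod1 (4.46% to 11.4%), 4.31% for Myog (2.27% to 7.49%) and 6.23% for Myf5 (0.722% to 24.5%). The interval of Myod1 lies above the median of the members, and those of Myog and Myf5 include it. Myf6, the factor that is highest in mature fibres, is not one of the 43 genes and was singled out after its values were seen. It had 2415 counts in BI-181 and 156 in BI-183 and 0 in the other 14 libraries.

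Genes of fusion and of the developing neuromuscular junction were also singled out after their values were seen. Tmem8c (myomaker, needed for myoblast fusion) had 84 counts in BI-181 and 0 in BI-183, but also 15 in BI-185 and 10 in an uninjured C57 library. Gm7325 (myomixer, also needed for fusion) had 19 counts in BI-181 and 31 in BI-183, against 31 and 3 in BI-184 and BI-185 and up to 52 in uninjured MRL, and so was not higher in the pair. Megf10, a receptor of satellite cells, had 83 and 93 counts in the pair and 102 and 289 in BI-184 and BI-185. Chrng, the fetal subunit of the acetylcholine receptor, had 25 counts in BI-181 alone. Cdh15, a cadherin of satellite cells and myoblasts, had 419 counts in BI-181, 24 in BI-183 and 0 elsewhere. Actc1, the cardiac and fetal actin, had 362 counts in BI-181 and 14 in BI-183, where BI-184 and BI-185 had 16 and 27.

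Other muscle genes were taken from 4 lists that hold none of the 43. BI-181 and BI-183 were the highest libraries for 18 of 24 further sarcomere and membrane genes, 10 of 13 genes of excitation-contraction coupling and 8 of 11 genes of muscle metabolism. They were so for 4 of 18 genes of myoblasts and regeneration, of which BI-181 was the highest library for 16. Of all 29726 genes with any count, BI-181 was the highest library for 11.1%, and the pair were the highest for 1.72%. The summed level of the sarcomere and membrane genes was 9845 CPM in BI-181 and 432 CPM in BI-183, against 81.4 and 162 CPM in BI-184 and BI-185 and 24.1 to 151 CPM in uninjured C57.

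Injury in C57 was compared over all 8 libraries. None of the 43 genes was a DEG (edgeR quasi-likelihood test, Benjamini-Hochberg adjusted p under 0.05 and absolute log2 fold change over 1), where 1.07% of the 14424 genes tested were. The expression filter kept 17 of the 43 and dropped 26, among them every myosin heavy chain and every myogenic factor, because they were found in too few libraries. Log2 fold changes of the 17 ran from 4.62 (Myom1) to 14.42 (Acta1), with adjusted p of 0.149 to 0.315, and all 17 had an unadjusted p under 0.05, as had 2204 of all 14424 genes tested. Acta1 had a standard error of 4.18 on the log2 scale, an unadjusted p of 0.00831 and an adjusted p of 0.169 in edgeR, and so did not pass after adjustment over all genes tested. DESeq2 gave an adjusted p to 5 of the 43 and called none of these, and 4 members had an unadjusted p under 0.05. It gave the rest no adjusted p, so they could not be called. Acta1 was one of these, with a log2 fold change of 14.52 and no p-value. In the same edgeR fit 6 of 8 macrophage markers were DEG and higher after injury, and none of the tenocyte, smooth muscle, endothelial, Schwann cell, cardiac or epidermal markers was (5, 1, 4, 2, 0 and 10 of them had an unadjusted p under 0.05). The 10 epidermal markers tested had a median log2 fold change of -9.22, all with an unadjusted p under 0.05, and their sum in uninjured C57 ran from 153 CPM to 85804 CPM (C57_uninj_6). The part of these cells in the muscle gene values was not tested.

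Without BI-181 and BI-183, the log2 fold changes of the 17 members then kept ran from -3.23 (Tcap) to 2.04 (Tnnt3), with a median of 0.30, and none was a DEG. This fit, on 6 libraries, called 0 of 15662 genes. The log2 fold change of Acta1 was 0.31 (SE 2.06, adjusted p = 0.99 in edgeR), against 14.42 with the pair.

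The 4 lists of other muscle genes were tested in the same fit. None of the 11 sarcomere and membrane genes tested was a DEG, nor any of 6 genes of excitation-contraction coupling, 7 of metabolism and 9 of myoblasts and regeneration. Those with the smallest adjusted p were Myoz2 (log2 fold change 9.90, SE 2.02, adjusted p = 0.0603 in edgeR), which binds calcineurin in slow fibres, Klhl40 (7.52, 0.156), which stabilises nebulin, and Des (7.67, 0.19), the intermediate filament desmin. In the other lists these were Cox6a2 (9.69, 0.166), a muscle subunit of cytochrome oxidase, Mef2c (2.26, 0.194), a partner of the myogenic factors, and Jph2 (4.98, 0.229), which joins the reticulum to the surface membrane.

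Injured tendons were then compared between strains. None of the 15 members tested was a DEG, where 3.43% of 14626 genes were. All 15 had a negative log2 fold change in MRL relative to C57, from -12.78 (Myl1) to -2.98 (Myom2), the smallest adjusted p was 0.0914 (Neb), and 13 had an unadjusted p under 0.05, as had 3103 of all genes tested. DESeq2 called 3 of the 5 members to which it gave an adjusted p lower in injured MRL (Tnni1, Myh3 and Myh7), and 1477 of 17933 genes. Of the 3, Myh3 and Myh7 had counts in BI-181 and BI-183 alone. Without these 2 libraries, 9 of 17 members tested had a positive and 8 a negative log2 fold change, with a median of 0.08, and edgeR called none. Of the companion genes, Actc1 and Itga7 were DEG and lower in injured MRL (log2 fold changes -7.77 and -6.35, adjusted p = 0.0294 and 0.0176). Actc1 and Itga7 (an actin and an integrin of muscle) are not among the 43, and BI-181 and BI-183 were among the libraries of this fit. Markers of other cell types also differed in the same fit. Lower in injured MRL were 1 of 7 smooth muscle markers (Acta2, log2 fold change -3.38, adjusted p = 0.0258), 1 of 5 endothelial markers (Pecam1, -3.75, 0.0389), 1 of 4 Schwann cell markers tested (Sox10, -6.12, 0.0349) and 2 of 8 macrophage markers (Csf1r, -1.39, 0.0273, and C1qa, -1.22, 0.0483). Of 10 tenocyte markers, 1 was higher (Scx, 1.18, 0.0162). The part of these cells in the muscle gene values was not tested.

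The difference between strains in the injury response, tested as an interaction over 16 libraries, called no member and 0% of the 15947 genes tested. All 22 members tested had a negative log2 interaction, of which 16 had an unadjusted p under 0.05 (1939 of all genes tested had), and the smallest adjusted p was 0.333. DESeq2 called 2 of 11 members, Xirp2 and Tnnc1, both negative, and 211 of 16094 genes. Without BI-181 and BI-183 the interaction of the 21 members tested ran from -5.60 (Xirp1) to 5.46 (Myoz1), and no member had an unadjusted p under 0.05.

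In MRL tendon, 2 members differed with injury. Of 9 members tested, Tcap fell and Tnni2 rose, where 7.41% of 14274 genes tested were DEG. Tcap had 321, 262, 197 and 191 counts in uninjured MRL and 78, 1, 35 and 24 counts in injured MRL, or 21.3, 19.1, 11.8 and 15.2 CPM against 3.21, 0.0458, 1.56 and 1.33 CPM. Every injured MRL library was below every uninjured one. The log2 fold change was -3.42 (SE 0.780, adjusted p = 0.0211 in edgeR's quasi-likelihood test), and the adjusted p was 0.0607 without MRL_uninj_1 and 0.0545 without MRL_uninj_4. The gene lies on chromosome 11 of GRCm38 at 98383811 to 98384953, with no exon of another gene over it.

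In C57 the counts of Tcap spread widely within the injured group. Uninjured C57 tendons had 169, 239, 156 and 80 counts, or 11.4, 15.5, 12.2 and 5.25 CPM, and BI-184 and BI-185 had 21 and 14 counts, or 1.32 and 0.967 CPM. BI-181 and BI-183 had 3223 and 110 CPM. Over all 8 libraries the log2 fold change was 6.23 (SE 2.37, adjusted p = 0.271), and without the pair it was -3.23 (SE 0.667, adjusted p = 0.279). Leaving out the pair removes the injured libraries with the most Tcap, so the sign of this value is no evidence of direction. Neither fit called Tcap in C57.

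Tnni2 moved the other way in MRL. Its counts were 16, 36, 10 and 6 in uninjured and 168, 76, 106 and 211 in injured MRL tendon, or 1.06, 2.62, 0.597 and 0.478 CPM against 6.92, 3.48, 4.71 and 11.7 CPM, without overlap. The log2 fold change was 2.51 (SE 0.688, adjusted p = 0.0421 in edgeR), and with 1 library left out it was called in 1 of 8 fits, that without MRL_uninj_4 (adjusted p 0.0295 to 0.105 over the 8 fits). The gene lies on chromosome 7 at 142441808 to 142444410. In uninjured C57 it had 10, 7, 13 and 109 counts, and in BI-184 and BI-185 48 and 58. The fast troponins T and C stood otherwise. Tnnt3 had 41, 7, 8 and 6 counts in injured MRL against 12, 6, 29 and 23 in uninjured MRL, and Tnnc2 had 0 counts in every injured MRL library. Acta1 and Ckm had at most 3 counts in any injured MRL library.

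In the same fit 5 of 8 macrophage markers were DEG and higher in injured MRL (Lyz2, log2 fold change 2.38, adjusted p = 0.0012), and of 10 tenocyte markers Thbs4 was higher (1.31, 0.00679) and Chad lower (-1.84, 0.0139). The smooth muscle, endothelial, Schwann cell, cardiac and epidermal lists held no DEG there (1, 0, 0, 0 and 3 of their genes had an unadjusted p under 0.05), and the part of these cells in Tcap and Tnni2 was not tested.

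The other 7 members tested in MRL did not pass. Pygm came nearest, with a log2 fold change of -1.75 (SE 0.580, adjusted p = 0.0788 in edgeR), and DESeq2 called it, as it did Tcap, Tnni2 and Atp2a1 (4 of 18 members and 1807 of 16937 genes). Of the companion genes, Pdlim3 and Phkg1 were DEG and lower in injured MRL (log2 fold changes -2.34 and -2.35, adjusted p = 0.0338 and 0.0108). Pdlim3 encodes an actinin-binding protein of the Z disc and Phkg1 a subunit of phosphorylase kinase, which switches Pygm on.

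Before injury the strains were compared over 8 uninjured libraries. No member of 12 tested was a DEG in edgeR, as was no gene (0% of 14055), and 1 member had an unadjusted p under 0.05. That member was Pygm, with 298, 256, 317 and 71 counts in MRL and 36, 13, 38 and 65 in C57, or 19.8, 18.6, 18.9 and 5.65 CPM against 2.43, 0.846, 2.97 and 4.26 CPM. Every MRL library was above every C57 library (log2 fold change 2.55, SE 0.582, adjusted p = 0.621), and DESeq2 called it at an adjusted p of 0.004. With 4 against 4 libraries the call thus depended on the tool.

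Tnnt1, the slow troponin T, had 93, 306, 231 and 0 counts in uninjured MRL and 1, 7, 11 and 58 in uninjured C57, so the groups overlapped (log2 fold change 2.97, SE 1.47, adjusted p = 0.649). Injured MRL tendons had 437, 164, 220 and 77 counts and BI-184 and BI-185 22 and 12. Its partner Tnni1 was at 0 in 11 of the 14 libraries outside the muscle-rich pair. Fast Tnnt3 was above Tnnt1 in counts in some of the 14 libraries (8 against 1 in C57_uninj_3 and 44 against 12 in BI-185) and below it in others (6 against 306 in MRL_uninj_4).

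**Figure D5:**
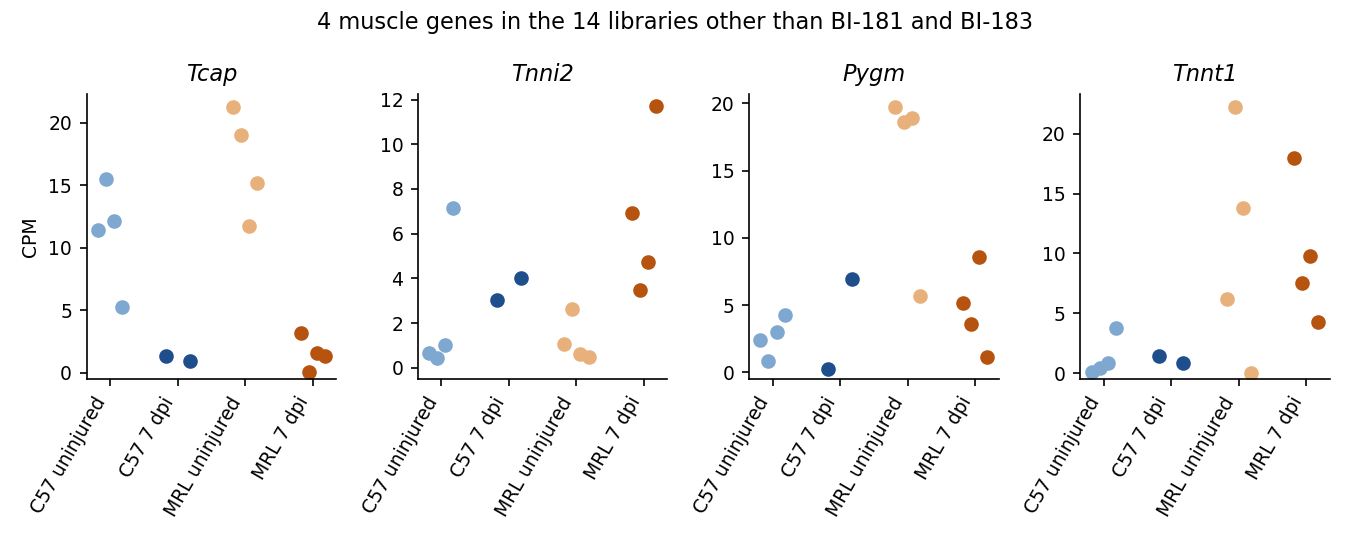
CPM of Tcap, Tnni2, Pygm and Tnnt1 (linear axes, 1 point a library) in the 14 libraries other than BI-181 and BI-183, by group; the injured C57 group has 2 points here. Injured MRL libraries lie below uninjured ones for Tcap (at most 3.21 against at least 11.8 CPM) and above them for Tnni2 (at least 3.48 against at most 2.62 CPM), uninjured MRL lies above uninjured C57 for Pygm, and Tnnt1 overlaps between the strains.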

How the data were processed

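Bulk RNA-seq of 16 mouse flexor tendon libraries was analysed. The authors trimmed single-end 100 nt reads with Trimmomatic 0.36, mapped them with STAR 2.5.2b to GRCm38.p5 and deposited whole-number counts per gene symbol, without normalization. The submitters' processing notes also list Subread 1.5.0p3 with featureCounts and DESeq2 1.14.1; the strand setting and counting annotation are not given in the sources used here. The methods name a pre-amplifying low-input kit with 1 ng of RNA and the labels a TruSeq kit, and if molecules were pre-amplified, counting intervals understate the technical error.

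Groups were taken from the sample labels. The study's methods give 4 animals per group, so the libraries of a group were taken as separate animals. Each comparison was fitted on its own groups with edgeR 4.0.16 (R 4.3.3): filter by expression, TMM, robust quasi-likelihood test and Benjamini-Hochberg adjustment over all genes tested. A DEG had adjusted p under 0.05 and absolute log2 fold change over 1, and the interaction adjusted p under 0.05. The edgeR test gives no standard error. The SE printed for it is the absolute log2 fold change divided by the square root of the F statistic of the test. CPM used TMM-adjusted sizes of all 16 libraries. Counts per kb used the union of exons in GENCODE M21. The tests were run on simulated data first. DESeq2 1.42.0 and the other alternatives are in the closing section.

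Values in every library are given for the myosin heavy chains, Acta1, Ckm, Pax7, Myf5, Myod1, Myog and members that were DEG, and of the other muscle genes at most 3 a list with the smallest adjusted p in the C57 comparison; other genes named were DEG or were chosen after their values were seen. Members, lists and the sets of fast and slow isoforms were chosen with earlier results of these data known. BI-181 and BI-183 are described one by one. Fits without them leave out libraries by their muscle content, and so are given to show how far a value rests on them and not as tests of injury. A gene of the lists of other muscle genes is not reported here.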

Additional observations from a re-analysis of the deposited data

Results flagged for a closer look

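A value was marked where the gap between the highest or lowest library of a group of 4 and its nearest neighbour, divided by the range of the group, exceeded Dixon's 95% critical value. Of 26 groups of values 15 were marked, 12 of them for BI-181. Chance marks about 1 in 20 independent groups, but that rate cannot be set against this tally. BI-181 had been named for its counts of these same genes, and the genes were high together in it. Among injured C57 libraries, BI-181 was marked for the share of counts on the 43 genes (0.968) and for the CPM of Acta1 (0.97), Ckm (0.974), Myh1 (0.971), Myh2 (0.963), Myh4 (1.0), Myh8 (0.982), Myf5 (0.938), Myod1 (0.927), Myog (0.957), Tcap (0.966) and Tnni2 (0.971). Myh3 and Myh7 were not marked.

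Outside this group, C57_uninj_3 was marked for Acta1 (0.85), with 13 counts against 0 to 2, C57_uninj_6 for Tnni2 (0.916), with 109 counts against 7 to 13, and MRL_uninj_5 for Myh1 (0.852), with 15 counts against 0 to 2. C57_uninj_6 also stood apart over all genes, with rank correlations of 0.799 to 0.835 with its group, and its 12 epidermal markers summed to 85804 CPM.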

How the results depend on the processing

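In C57 no member was called under any of 15 alternatives, but DESeq2 gave an adjusted p to only 5 of the 43 there. DESeq2 in place of edgeR called 4 members in MRL injury (Tcap, Tnni2, Pygm and Atp2a1), 2 in the interaction, 1 between uninjured strains and 3 between injured strains. A filter of at least 10 counts in every library left 2 members to test in MRL and called 0. Leaving out 1 library gave 0 to 2 members in MRL injury (0 without MRL_uninj_1, and Tcap and Pygm without BI-274), 0 to 1 between injured strains (Myom1, without BI-184), and 0 in the other comparisons. The log2 fold change of Tcap in C57 was -3.23 without BI-181 and BI-183, from 6.23. RLE or upper-quartile factors, no filter, and library sizes without the members changed no count of members. The replicate numbers of uninjured libraries did not pair them (correlations of same-numbered deviations -0.306 to 0.033), and the fit with a replicate block called 0 members. Over all genes, edgeR and DESeq2 called 155 and 907 in C57 injury, 1057 and 1807 in MRL injury, 502 and 1477 between injured strains, 0 and 211 in the interaction and 0 and 104 between uninjured strains. The edgeR count was 269 in C57 with at least 10 counts in every library and 10 to 750 with 1 library left out. Between injured strains it was 112 without BI-181 and BI-183 and 231 to 481 with 1 library left out, and in MRL injury 689 to 1260.

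As raw counts, Myh4, Myh1 and Myh2 were 9.63%, 57.5% and 32.7% in BI-181, and Myh1 and Myh2 57.1% and 41.5% in BI-183. Per kb of exon outside other genes, chosen after seeing the data, BI-181 had 9.88%, 60.8% and 29.2%. Raw fast shares in BI-181 and BI-183 were 93.5% and 81.3% for Tnni2, 93.7% and 85.7% for Tnnt3, 99.5% and 97.1% for Mylpf and 46.2% and 48.0% for Actn3. For Tnnc2 the raw share was 12.7% in BI-181, and outside other genes it was 42.1% and 26.2%. The share of all counts in BI-181 and BI-183 was 10.5% and 0.343% without Ttn, 8.83% and 0.282% without Acta1, and 11% and 0.357% without Ckm. Depth limits Myh8, Pax7 and Myf5 in BI-183.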

Other observations

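Myom1, a titin-binding protein of the M line, was found at a low level in C57 tendon and hardly in MRL. Its counts were 76, 24, 29 and 0 in uninjured C57, 1 and 114 in BI-184 and BI-185, 0, 0, 0 and 3 in uninjured MRL and 0, 0, 1 and 0 in injured MRL. The groups of each strain overlapped, and the gene was not among those tested between uninjured strains.

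Fbp2, a muscle fructose bisphosphatase, went against the other metabolism genes. It had 271 counts in C57_uninj_6, 41 in BI-181 and 4 in BI-183, and 0 to 22 in the other libraries. Both genes were chosen after their values were seen.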
